A study of Saccharomyces cerevisiae with 4 samples.

Results

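The genes described here are 8 nuclear genes of Saccharomyces cerevisiae that make and interconvert folate-bound one-carbon units or run the glycine cleavage reaction. They were chosen by name, with earlier results of these data known: SHM1, SHM2, GCV1, GCV2, GCV3, MTD1, ADE3 and MET13. They are 8 of 6706 reading frames listed, on 7 chromosomes, and none lies on chromosome III. RNA was sequenced in 4 libraries of W-303 yeast, 2 of a wild-type strain and 2 of a tDNA-less strain, which lacks the tRNA genes (tDNAs) of chromosome III, both grown in rich medium to early log phase without treatment. The series asked how the transcriptome differs when these tRNA genes are gone. Both strains are MATa and carry ade2-1, a mutant allele of a purine synthesis gene, together with trp1-1 and ura3-1. The wild type also carries his3-11,15, can1-100 and a mutant allele of LEU2. The tDNA-less strain has 9 numbered tDNA deletions on chromosome III, of which t8D+t9D are marked by LEU2, and T1+T7::HIS3, and none of the other mutant alleles of the wild type is listed for it, so these allele differences and the loss of the tRNA genes cannot be told apart. Each group is 1 named strain, JRY2334 or JKY690, whose libraries the labels call biological replicates.

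One-carbon metabolism moves single carbon atoms between molecules on the cofactor tetrahydrofolate. Serine hydroxymethyltransferase converts serine to glycine and loads the carbon onto folate, and the mitochondrial glycine cleavage complex does so by breaking glycine down. The loaded folates are then oxidised toward formyl-folate, which is spent on purine rings, or reduced to methyl-folate, which is spent on methionine. In yeast the glycine cleavage genes are known to be induced by glycine, and several genes of the pathway are known targets of Bas1, an activator that also drives purine synthesis and binds the same core letters as Gcn4, the activator of amino acid synthesis genes.

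Libraries held from 12.48 M to 19.76 M estimated counts. Between 30.63% and 45.09% of them came from YSH1, ATG7, LTO1 and MSK1, with the highest share in tDNA-less replicate 1 and the lowest in wild-type replicate 2. These 4 reading frames enter every TPM value, which relates a count to length and to the sum over the library. Levels between libraries are therefore given in normalised CPM (counts scaled to library size after TMM normalisation), and TPM is used to set genes of one library side by side. Pairs of values below are always in the order of replicates 1 and 2. The 8 genes had between 171 counts, for MTD1 in tDNA-less replicate 1, and 12244, for ADE3 in wild-type replicate 2. Counting error alone is 7.65% at the lowest of these counts. Their estimated counts were whole numbers in every library, and 0% of their 31-base words occur in another annotated reading frame, so no reads were divided between them and a similar sequence. RNA was taken from whole cultures, in which fewer cells with a transcript and less of it per cell cannot be told apart.

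The sequences upstream of these genes are shown first, because most of them hold the letters that Bas1 binds. Sequences and positions are from the RefSeq assembly R64 of the reference strain S288C, the assembly that the name sacCer3 stands for, and not from W-303. The 300 bases before each start codon were searched on both strands for TGACTC (the core bound by Bas1 and Gcn4), CACGTG (Cbf1), CTGTGG (the core bound by Met31 and Met32) and CATCNNNNNNNCTTCTT (the glycine response motif of the glycine cleavage genes, with N for any base). Each window is printed 5′ to 3′ on the gene's strand from 300 to 101 bases before the start codon. The 100 bases next to the start codon are left out of the print, because transcript leaders are not annotated in the reference. Capitals mark matches to any of the 4 motifs, whose reverse complement reads GAGTCA for TGACTC and CCACAG for CTGTGG. GCV2 is shown for its cluster of matches, GCV1 for the glycine response motif that it shares with GCV2, MET13 because it is the gene that passed the test below, and SHM1 because it lacks TGACTC.
GCV2, chrXIII:637200-637399, plus strand: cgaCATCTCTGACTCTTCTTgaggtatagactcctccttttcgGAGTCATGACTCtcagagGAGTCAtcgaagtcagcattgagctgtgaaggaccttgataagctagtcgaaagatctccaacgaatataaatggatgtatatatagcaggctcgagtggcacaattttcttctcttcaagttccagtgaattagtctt
GCV1, chrIV:485466-485665, minus strand: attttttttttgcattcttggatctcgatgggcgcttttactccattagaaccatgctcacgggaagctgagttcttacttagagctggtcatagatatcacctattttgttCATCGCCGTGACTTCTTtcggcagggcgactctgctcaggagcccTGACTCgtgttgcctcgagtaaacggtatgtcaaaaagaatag
MET13, chrVII:272220-272419, plus strand: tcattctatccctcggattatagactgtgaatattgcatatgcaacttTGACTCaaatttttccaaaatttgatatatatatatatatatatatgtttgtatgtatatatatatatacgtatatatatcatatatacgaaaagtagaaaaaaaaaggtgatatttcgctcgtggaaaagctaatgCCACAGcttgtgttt
SHM1, chrII:735964-736163, plus strand: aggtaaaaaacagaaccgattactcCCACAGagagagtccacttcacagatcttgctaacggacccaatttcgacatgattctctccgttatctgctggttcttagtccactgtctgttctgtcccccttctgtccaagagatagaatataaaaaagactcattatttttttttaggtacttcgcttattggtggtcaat

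TGACTC was found upstream of 7 of the 8 genes and upstream of 465 of 5984 nuclear reading frames with a full window, or 7.77%. GCV2 held 4 matches, between 291 and 234 bases before its start codon, and the first of them lies inside its match to the glycine response motif. SHM2, MTD1 and GCV3 held 2 matches each, and ADE3, GCV1 and MET13 held 1. The longer TGACTCA was found at MTD1 and MET13 and in 2.62% of all windows. The glycine response motif was found at GCV1 and GCV2 but not at GCV3, and in 10 of 5984 windows, or 0.167%. It is known as the motif of the glycine cleavage genes, so its presence at GCV1 and GCV2 is not an independent result. Of the other 8 windows, 1 belongs to MRPS17, which neighbours GCV2 and whose window overlaps that of GCV2. CTGTGG, found in 6.83% of windows, occurred at SHM1, ADE3, GCV2 and MET13, with 2 matches at MET13, and CACGTG, found in 3.56%, occurred at ADE3. MET6 and SER3, which also fell in the test below, held no TGACTC. MET6 held none of the 4 motifs, and SER3 held CTGTGG. A match says only that the letters are there. Of the 455 tested reading frames with TGACTC in their window, 2.86% were called different between the strains in edgeR, against 1.50% of all reading frames tested, and their median log2 fold change was -0.012.

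**Figure D1:**
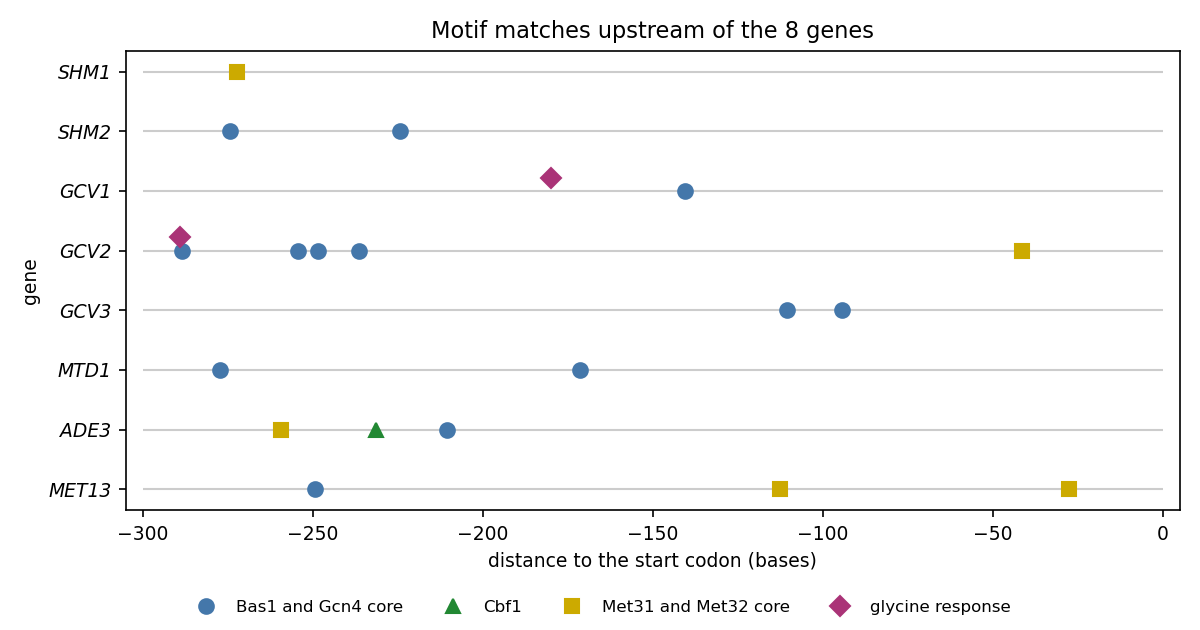
Position of each motif match in the 300 bases before the start codon of the 8 genes, with distance to the start codon in bases on the horizontal axis, 1 line per gene and 1 symbol per kind of motif. Bas1 and Gcn4 core matches lie on 7 of the 8 lines, with 4 on that of GCV2, and the line of SHM1 holds a single Met31 and Met32 core match.

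Set side by side per length, the genes fell into a high and a low group in every library, with SHM1 between them. GCV3, the lipoate-carrying H protein of glycine cleavage, had 158.9 and 176.6 TPM in the wild-type libraries and 129.8 and 145.1 TPM in the tDNA-less ones. ADE3 had 128.3, 153.0, 125.7 and 142.8 TPM and SHM2 128.1, 149.9, 98.1 and 112.7 TPM with the libraries in that order. These 3 genes stood above 87.8% to 91.6% of all listed reading frames in each library. SHM1 followed with 58.9 to 68.3 TPM. MET13, GCV1, MTD1 and GCV2 lay between 10.4 and 22.3 TPM, with ranges over the 4 libraries that overlapped one another, near the middle of all reading frames. The order of the leading 3 depends on how length enters. Per kilobase of coding length, ADE3 led in every library with 174.3 to 194.1 CPM per kb and GCV3, the shortest of the 8 at 513 bases, came after SHM2.

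**Figure D2:**
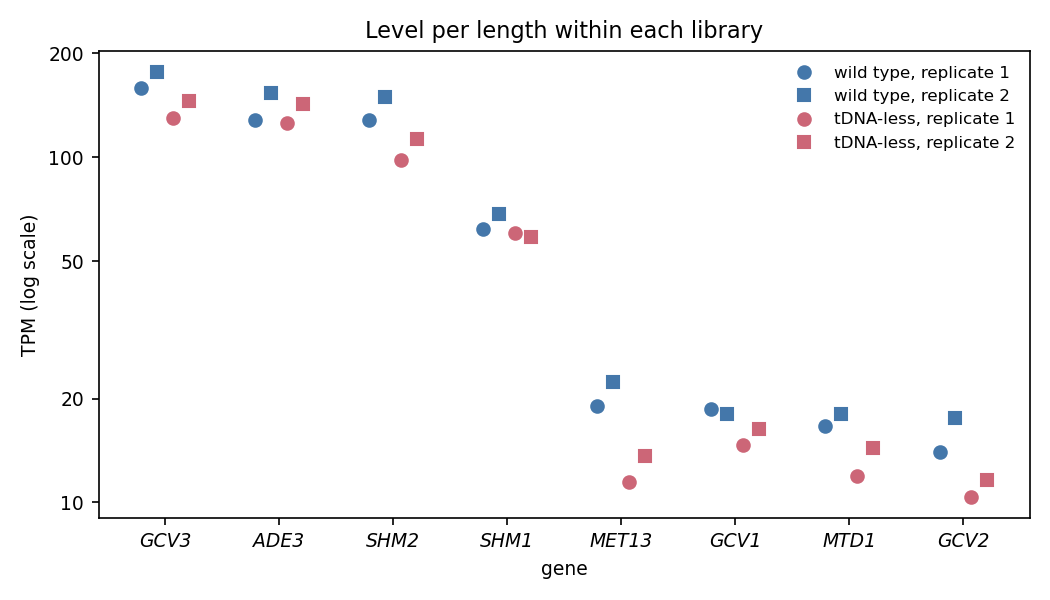
TPM on a log scale for the 8 genes in the 4 libraries, ordered by level in wild-type replicate 1, with colour for the strain and symbol for the replicate. GCV3, ADE3 and SHM2 lie at 98.1 TPM or more, SHM1 between 58.9 and 68.3, and the other 4 genes at 22.3 or less.

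Of the 8 genes, 1 fell in the tDNA-less strain, MET13, and 0 rose (edgeR's quasi-likelihood test, adjusted over 6205 reading frames tested). DESeq2 and limma-voom gave the same counts. At an unadjusted p under 0.05 edgeR had 4 lower and 0 higher, and DESeq2 and limma-voom each had 3 lower and 0 higher. Over all 6205 reading frames tested, 734 had an unadjusted p under 0.05 in edgeR, in either direction. All 8 passed the filter on low counts. Over all reading frames tested, 1.50% were called in either direction and 0.693% were called lower. In normalised CPM, both tDNA-less libraries lay below both wild-type libraries for 6 of the 8 genes, against 20.8% of all reading frames, and above both for 1, ADE3, against 22.0%. On the TPM scale 7 of 8 lay below, against 36.2% of all reading frames, with none of the 8 above, against 6.82%. That scale is shifted as a whole, with a median log2 fold change of all reading frames of -0.11 on log2(TPM + 1). The gene added there was SHM1, at -0.13 on log2(TPM + 1) and -0.01 relative to that median. In the edgeR fit the median log2 fold change of the 8 genes was -0.225, and that of all reading frames tested was 0.003. Because the 8 genes were chosen with earlier results of these data known, these shares and medians are a description and not a test.

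**Figure D3:**
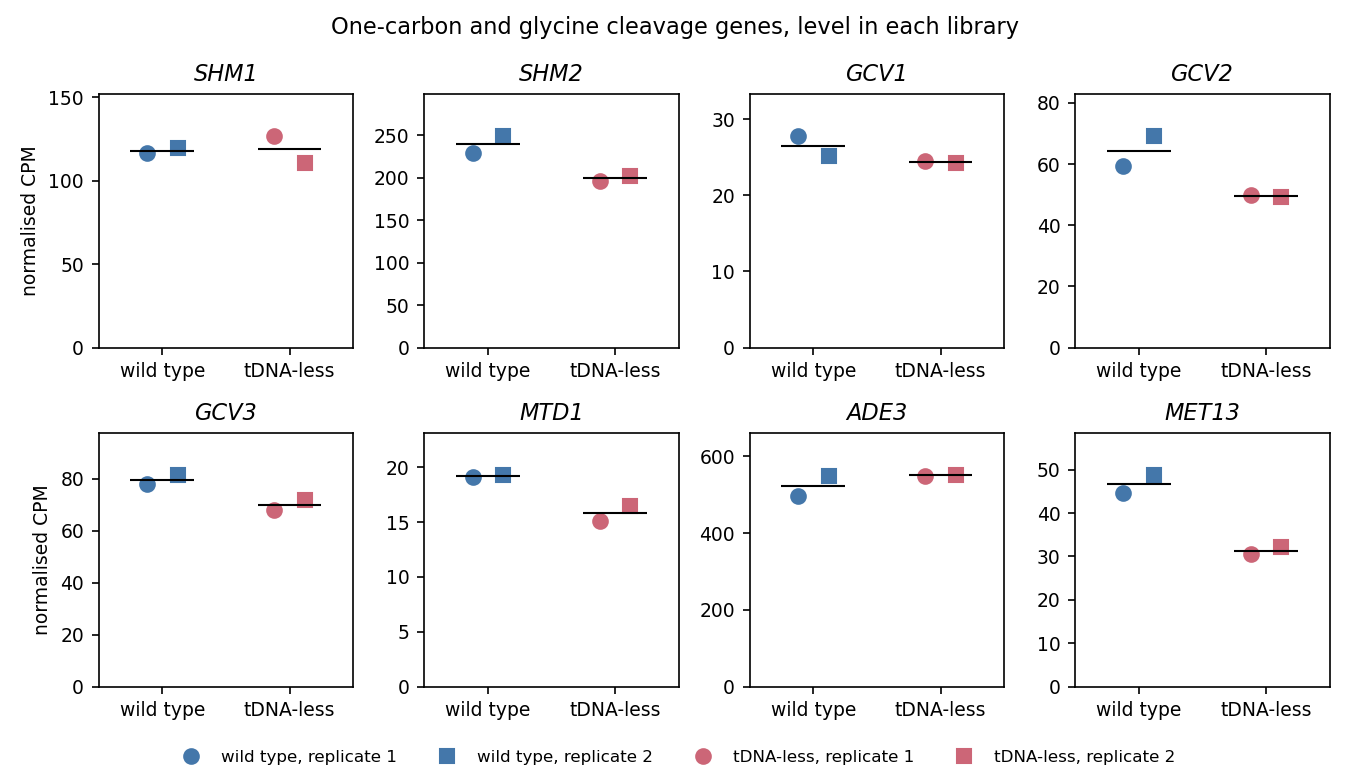
Normalised CPM of the 8 genes, 1 panel per gene with an axis that starts at 0, 1 point per library (n = 2 per strain) and a bar at the mean of each strain. The points of the strains are apart and lower in the tDNA-less strain for SHM2, GCV1, GCV2, GCV3, MTD1 and MET13, overlap for SHM1, and for ADE3 differ by less than 1% between the nearest libraries.

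The serine hydroxymethyltransferases exchange serine and glycine, SHM1 in mitochondria and SHM2 in the cytosol. SHM2 (YLR058C, chromosome XII 257992 to 259401, a single exon) had 229.1 and 249.4 CPM in wild type and 196.6 and 202.0 CPM in the tDNA-less strain. Both tDNA-less libraries were below both wild-type ones, with means of 239.3 ± 14.3 and 199.3 ± 3.78 CPM (SD, n = 2). The log2 fold change was -0.26 ± 0.08 (SE), with a 95% interval from -0.44 to -0.09, and did not pass (edgeR, adjusted p = 0.192). SHM1 (YBR263W, chromosome II 736264 to 737736, a single exon) had 116.8 and 119.4 CPM in wild type and 126.9 and 110.9 CPM in the tDNA-less strain. The tDNA-less libraries lay on either side of the wild type, and the log2 fold change was 0.01 ± 0.09 with an interval from -0.19 to 0.21 (edgeR, adjusted p = 0.985).

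The cytosolic to mitochondrial ratio, SHM2 over SHM1, does not depend on the scaling between libraries. In TPM it was 2.06 and 2.2 in wild type and 1.63 and 1.91 in the tDNA-less strain. The mean log2 ratio went from 1.09 ± 0.06 to 0.82 ± 0.16 (SD, n = 2), a difference of -0.27. The tDNA-less libraries were both lower, and the exact two-sided permutation test gave p = 0.333, the smallest that 2 against 2 libraries allow.

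Glycine cleavage is carried out by the P protein (GCV2, the decarboxylase), the H protein (GCV3) and the T protein (GCV1, the aminomethyltransferase), with the L protein LPD1 shared with other dehydrogenases. GCV2 (YMR189W, chromosome XIII 637500 to 640604) had 59.5 and 69.2 CPM in wild type and 49.9 and 49.2 CPM in the tDNA-less strain. Its libraries did not overlap, and after MET13 it had the lowest log2 fold change of the 8, -0.38 ± 0.10 with an interval from -0.60 to -0.16, which did not pass (edgeR, adjusted p = 0.127). GCV3 (YAL044C, chromosome I 57950 to 58462) had 77.8 and 81.5 CPM in wild type and 68.1 and 71.9 CPM in the tDNA-less strain. Its log2 fold change was -0.19 ± 0.08 (edgeR, adjusted p = 0.414), with an upper bound of the 95% interval close to 0. GCV1 (YDR019C, chromosome IV 484163 to 485365) had 27.8 and 25.2 CPM in wild type and 24.5 and 24.3 CPM in the tDNA-less strain. The nearest libraries of the strains almost touched, and the log2 fold change was -0.11 ± 0.12 (edgeR, adjusted p = 0.772). LPD1 was in the other direction, at 100.7 and 95.7 CPM in wild type and 109.5 and 107.5 CPM in the tDNA-less strain, and did not pass either (log2 fold change 0.14 ± 0.08, edgeR, adjusted p = 0.522).

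Within a library the GCV subunits were far apart in TPM. GCV3 was 8.51 and 9.74 times GCV1 in wild type and 8.81 and 8.9 times in the tDNA-less strain, so the strains overlapped (difference of log2 ratios -0.04, exact permutation p = 1). GCV2 was 0.751 and 0.969 times GCV1 in wild type and 0.705 and 0.711 times in the tDNA-less strain. The latter were both lower, by a mean log2 difference of -0.27 (exact permutation p = 0.333), but the gap between the wild-type libraries was larger than the gap between the strains' nearest libraries. This difference was -0.454 without wild-type replicate 1 and -0.085 without wild-type replicate 2.

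MTD1 and ADE3 oxidise the loaded folates in the cytosol. MTD1 (YKR080W, chromosome XI 590395 to 591357), the NAD-dependent methylenetetrahydrofolate dehydrogenase, had 19.1 and 19.3 CPM in wild type and 15.1 and 16.5 CPM in the tDNA-less strain. The strains were apart, and the log2 fold change of -0.28 ± 0.14 did not pass, with an interval from -0.59 to 0.03 (edgeR, adjusted p = 0.464). ADE3 (YGR204W, chromosome VII 905934 to 908774), the trifunctional C1-tetrahydrofolate synthase, had 495.2 and 548.0 CPM in wild type and 548.7 and 551.5 CPM in the tDNA-less strain. Wild-type replicate 2 lay level with the tDNA-less libraries and wild-type replicate 1 below them, and the log2 fold change was 0.08 ± 0.08 (edgeR, adjusted p = 0.784). On the log2(TPM + 1) scale, where the median of all reading frames was -0.11, the fold change of ADE3 was -0.06, and 0.05 relative to that median.

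MIS1 is the mitochondrial counterpart of ADE3. It had 144.2 and 134.3 CPM in wild type and 119.9 and 126.4 CPM in the tDNA-less strain (log2 fold change -0.17 ± 0.08, edgeR, adjusted p = 0.439). ADE3 over MIS1 in TPM was 3.55 and 4.21 in wild type and 4.73 and 4.5 in the tDNA-less strain. This cytosolic to mitochondrial ratio was higher in both tDNA-less libraries, by 0.25 on the log2 scale, whereas that of the serine hydroxymethyltransferases was lower (exact permutation p = 0.333 for each). The difference for ADE3 over MIS1 was 0.13 without wild-type replicate 1 and 0.379 without wild-type replicate 2.

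MET13 (YGL125W, chromosome VII 272520 to 274322, a single exon) encodes the methylenetetrahydrofolate reductase, which commits one-carbon units to methionine. It had 44.7 and 48.8 CPM in wild type and 30.5 and 32.1 CPM in the tDNA-less strain. The strains were well apart, with means of 46.7 ± 2.9 and 31.3 ± 1.11 CPM (SD, n = 2). MET13 fell 1.5-fold, its log2 fold change being -0.58 ± 0.10 (SE) with a 95% interval from -0.81 to -0.35 (edgeR, adjusted p = 0.0202). The direction held in all 13 alternative analyses and the call in 8. It was lost without wild-type replicate 2 (adjusted p = 0.0987), without tDNA-less replicate 1 (0.324) or 2 (0.225), and in limma on log2(TPM + 1) (0.145) and on log2(TPM + 0.1) (0.152).

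MET12, a paralog of MET13 with the same annotated activity, had 84.0 and 87.4 CPM in wild type and 73.2 and 83.1 CPM in the tDNA-less strain, and its log2 fold change of -0.13 ± 0.09 did not pass (edgeR, adjusted p = 0.61). MET13 over MET12 in TPM was 0.588 and 0.616 in wild type and 0.461 and 0.427 in the tDNA-less strain. This was the largest of the 5 ratio differences, -0.44 on the log2 scale, with both tDNA-less libraries lower (exact permutation p = 0.333). MET6, the methionine synthase that spends the methyl-folate made by MET13, had 473.9 and 523.4 CPM in wild type and 289.2 and 295.8 CPM in the tDNA-less strain. It fell as well, by 0.77 on the log2 scale (edgeR, adjusted p = 0.0012), a call lost without tDNA-less replicate 1 (0.117) or 2 (0.0896).

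**Figure D4:**
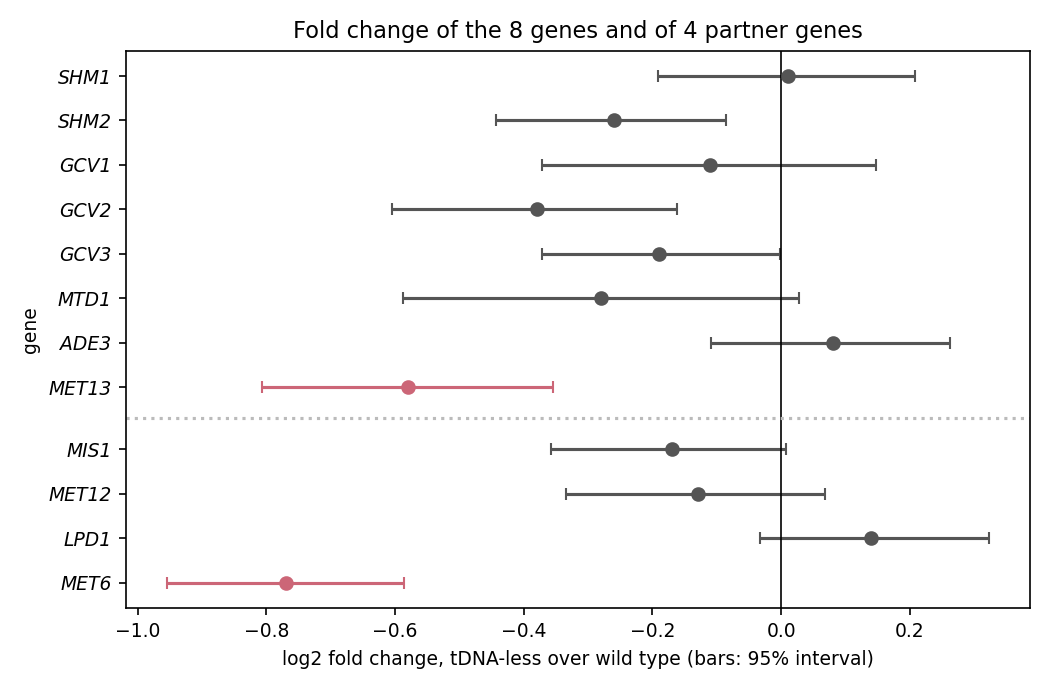
Log2 fold change, tDNA-less over wild type, with 95% intervals from the edgeR fit, for the 8 genes above the dotted line and for MIS1, MET12, LPD1 and MET6 below it, with called genes in red. MET13 and MET6 are the called genes, at -0.58 and -0.77, and the intervals of SHM2, GCV2 and GCV3 lie below 0 although these genes did not pass after adjustment.

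**Figure D5:**
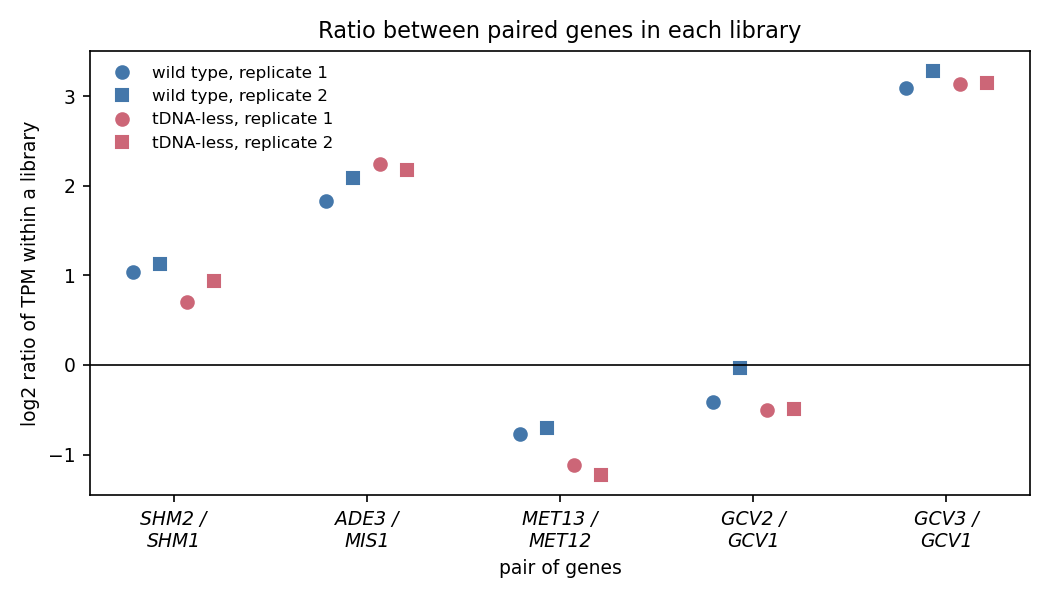
Log2 ratio of TPM within each library for the 5 pairs of genes, with colour for the strain and symbol for the replicate. The ratios SHM2 over SHM1, MET13 over MET12 and GCV2 over GCV1 are lower in both tDNA-less libraries, ADE3 over MIS1 is higher in both, and GCV3 over GCV1 overlaps.

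The wider pathway was read from 38 other genes in 6 lists, of which 2 fell, 0 rose and 36 did not pass (edgeR, DESeq2 and limma-voom alike). At an unadjusted p under 0.05, edgeR had 7 lower and 1 higher. The median log2 fold change of the 38 was -0.041. Over all 6205 reading frames tested, 1.50% were called and 734 had an unadjusted p under 0.05, in either direction (edgeR). Among 10 other folate enzymes, edgeR, limma-voom and DESeq2 each called 0, and 0 reached an unadjusted p under 0.05 in any of them. Their median was -0.094, from -0.27 for FOL3, the dihydrofolate synthetase, to 0.03 for ABZ1, which makes the precursor of para-aminobenzoate. Of 6 enzymes that spend one-carbon units, 1 fell, MET6, with a median of -0.121. The highest value there was 0.49 ± 0.35 for FMT1, the mitochondrial methionyl-tRNA formyltransferase, which had 29 to 56 counts per library (edgeR, adjusted p = 0.641).

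Of 8 genes of serine and glycine supply and use, edgeR, limma-voom and DESeq2 each had 1 fall and 0 rises. At an unadjusted p under 0.05, 3 were lower and 1 higher in edgeR, against 734 of 6205 over all reading frames in either direction. SER3, the phosphoglycerate dehydrogenase that starts serine synthesis, had 100.5 and 99.0 CPM in wild type and 77.8 and 71.1 CPM in the tDNA-less strain (log2 fold change -0.42 ± 0.08, edgeR, adjusted p = 0.042). Each of the 4 fits with a library missing lost this call (adjusted p from 0.0888 to 0.523), as did limma on log2(TPM + 1) (0.171) and on log2(TPM + 0.1) (0.185), and SER3 shares 4.35% of its 31-base words with SER33, its paralog. CHA1, the catabolic serine and threonine deaminase, is a chromosome III gene (15798 to 16880). It had 9.65 and 10.4 CPM in wild type and 16.4 and 17.5 CPM in the tDNA-less strain. Its log2 fold change of 0.75 ± 0.16 was the highest of the 38 and did not pass (edgeR, adjusted p = 0.0635).

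Of 7 further purine synthesis genes, edgeR, limma-voom and DESeq2 each called 0. At an unadjusted p under 0.05 there were 2, both lower, against 734 of 6205 over all reading frames in either direction (edgeR). The median of the 7 was -0.19, from -0.28 ± 0.09 for ADE4, the first committed enzyme of the pathway (edgeR, adjusted p = 0.255), to 0.06 for ADE2, which is mutant in both strains. TGACTC stood in the windows of 6 of these 7 genes, whose median log2 fold change was -0.137. It also stood in the windows of 3 of the next 4 genes, whose median was 0.118. Of the 4 genes for the L protein and for lipoic acid synthesis or attachment, 0 were called by any of the same tools and 0 had an unadjusted p under 0.05. All had values between 0.06 for LIP2, a lipoyltransferase, and 0.14 for LPD1. On the log2(TPM + 1) scale LIP2 was at -0.06, and 0.06 relative to the median of all reading frames.

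Of the 3 regulators read here, BAS1, PHO2 and GCN4, 0 were called in edgeR, limma-voom and DESeq2. At an unadjusted p under 0.05, edgeR and DESeq2 had 0, and limma-voom had 1, which was higher. The genes for Cbf1, Met31 and Met32 were not read. BAS1 had 64.5 and 55.9 CPM in wild type and 51.6 and 53.4 CPM in the tDNA-less strain (log2 fold change -0.19 ± 0.10, edgeR, adjusted p = 0.488). PHO2, the partner of Bas1, was at 0.26 ± 0.13 (edgeR, adjusted p = 0.468). GCN4, named after its values were seen, had 413.9 and 399.9 CPM in wild type and 463.4 and 450.7 CPM in the tDNA-less strain, and its log2 fold change was 0.17 ± 0.08 (edgeR, adjusted p = 0.424). Gcn4 is known to be controlled mainly at translation, which RNA levels do not show.

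As a description of shape, the centred log2 CPM of GCV1, GCV2 and GCV3 averaged 0.09 and 0.14 in wild type and -0.12 and -0.10 in the tDNA-less strain. This mean is not the shape of each gene, as GCV1 was higher in wild-type replicate 1 than in 2, and GCV2 and GCV3 lower. The GCV genes were left out of the ranking. Among 5031 other reading frames at or above a mean of 3 on the log2 CPM scale, those nearest to the mean by root-mean-square distance over the 4 libraries were MRD1, RVB1, ESF1, TAH18 and HSH155, at 0.00284 to 0.0112. Log2 fold changes of these 5 were between -0.24 for TAH18 and -0.21 for HSH155, and 0 of them were called (edgeR, adjusted p from 0.248 to 0.429). In the same order SHM2 ranked 77 and MTD1 192, while SHM1, ADE3 and MET13 ranked 2124, 2573 and 3181.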

How the data were processed

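Per the labels, total RNA was column-purified and directional libraries were sequenced by a commercial service. The submitters' processing notes name kallisto, sleuth and sacCer3, without versions, and for the index and strand setting nothing is stated. The deposited tables hold estimated counts and TPM per reading frame, and 100.0% of the deposited lengths are multiples of 3, so they are coding lengths. Of the 6706 names, 6022 were found in the R64 annotation, among them all 46 genes of the lists used here.

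Estimated counts were rounded, filtered with filterByExpr (minimum 10 counts, 6205 kept), scaled by TMM and tested with edgeR 4.0.16 in R 4.3.3, using the quasi-likelihood test with Benjamini-Hochberg adjustment over all reading frames tested and a threshold of 0.05. Standard errors are the absolute log2 fold change over the square root of F. DESeq2 1.42.0 and limma 3.58.1 served as alternatives. Ratios of TPM within a library were compared by exact permutation. The test was checked on simulated counts.

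The 8 genes and the lists were chosen with earlier results of these data known. Genes named are the 8, MIS1, MET12, LPD1, MET6, called list genes, the highest and lowest of each list, and the 5 reading frames nearest to the mean profile of the GCV genes. The replicate numbers come with no shared day or batch in the labels, so the libraries were not paired.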

Additional observations from a re-analysis of the deposited data

How the results depend on the processing

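The number of reading frames called was 93, and 13 alternatives were tried. It stayed within 1.5 times of that under DESeq2's size factors, both filters on low counts, DESeq2 (117), limma-voom and without the 4 most abundant reading frames. It was 52 on log2(TPM + 1), with 32.7% of calls higher against 53.8%, and 39 on log2(TPM + 0.1), with 28.2% higher. Leaving out 1 library gave 21 to 91, with 21 and 30 without tDNA-less replicates 1 and 2. Of the 8 one-carbon genes, 1 was called, 0 on log2(TPM + 1) and on log2(TPM + 0.1), and 0 to 1 with 1 library left out. With 1 library of a strain left, that library is assumed to vary like the others.

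With the replicate number as a block, 282 reading frames and 2 of the 8 genes were called, MET13 and GCV2 (edgeR, adjusted p = 0.02), and CHA1 passed (0.012), as did SER33, named here after its values were seen. The libraries share only a number, and their deviations correlated at 0.241 between same-numbered libraries. SHM2, MTD1, GCV1, GCV2, GCV3 and MET13 kept a negative fold change in all 13 alternatives.

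SHM1 (main value 0.01) was at -0.127 and -0.129 on log2(TPM + 1) and log2(TPM + 0.1), both -0.01 relative to the median of all reading frames, and at -0.014 and -0.095 without wild-type replicate 1 and tDNA-less replicate 1 (up to 0.104 without another library). ADE3 was at -0.064 on both TPM scales and from -0.001 without wild-type replicate 1 to 0.151 with a library left out. In the same order of TPM scales ABZ1 was at -0.109 and -0.112, LIP2 at -0.057 and -0.06, and ADE2 at -0.061 and -0.068. With a library left out LIP2 ran from -0.02 without wild-type replicate 1, with -0.019 without tDNA-less replicate 2, to 0.161, and ADE2 from -0.033 without wild-type replicate 1 to 0.166. The log2 ratio difference of GCV3 over GCV1 was -0.04 and ran from -0.137 to 0.058 with 1 library left out, turning positive without wild-type replicate 2. The other 4 ratios kept their direction, also in estimated counts. With 1 library left out, ADE3 over MIS1 ran from 0.13 to 0.379 and GCV2 over GCV1 from -0.454 to -0.085, both set by the wild-type replicates. SHM2 over SHM1 ran from -0.385 to -0.153, the latter without tDNA-less replicate 1, and MET13 over MET12 from -0.496 to -0.386. Fold changes that did not pass moved as well. Without wild-type replicates 1 and 2 in turn, GCV1 was at -0.05 and -0.188 and BAS1 at -0.095 and -0.296. Without tDNA-less replicates 1 and 2 in turn, MET12 was at -0.051 and -0.228, PHO2 at 0.118 and 0.393, FMT1 at 0.678 and 0.254, and ADE4 at -0.387 and -0.172. The cause of these changes was not tested.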
